A study of Mus musculus with 2 samples.

Results

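The genes of the CD28 family of receptors, Cd28, Icos, Ctla4, Pdcd1 and Btla, were examined in IL-10-producing CD4+ T cells from the spleen and the small intestine of mice. They were chosen by name as 5 of the 28009 genes counted, and all 5 were detected in both tissues. The cells came from IL-10eGFP Foxp3mRFP double reporter mice, in which eGFP reports IL-10 and mRFP reports Foxp3, so that both tissues shared the same reporter alleles and the same treatment. Mice of 8 to 16 weeks of age had been given anti-CD3 by intraperitoneal injection on day 0 and again on day 2, with 15 ug in each of the 2 doses, and tissues were taken 4 h after the last dose. CD4+ eGFP+ T cells were sorted, with Foxp3+ cells included in both samples. Each tissue was represented by 1 droplet library (2 libraries in all), no untreated or IL-10-negative cells were analysed here, and the number of mice pooled is not given in the sources used here. Tissue and library therefore cannot be told apart, and the intervals below, all at 95%, cover counting error only. No p-value was computed.

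CD28 is the receptor that supplies the classical costimulatory signal to a T cell whose antigen receptor is engaged, and ICOS is an inducible relative of it that binds ICOS ligand and signals strongly through phosphoinositide 3-kinase. CTLA-4 competes with CD28 for CD80 and CD86, is held largely inside the cell and is abundant in regulatory T cells, where it takes these ligands off antigen-presenting cells. PD-1, the product of Pdcd1, and BTLA carry inhibitory tyrosine motifs that recruit the phosphatases encoded by Ptpn6 and Ptpn11, and they are bound by PD-L1 and PD-L2 and by the herpesvirus entry mediator, respectively. In strict terms BTLA is a related immunoglobulin superfamily receptor and not a sequence homologue of CD28. All 5 are studied as controls on effector and regulatory T cells, also in the gut.

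On GRCm38, Cd28 (ENSMUSG00000026012) lies at chr1:60716800-60773359, Ctla4 (ENSMUSG00000026011) at chr1:60887000-60915832 and Icos (ENSMUSG00000026009) at chr1:60977927-61000320, all on the plus strand. They are neighbours: 113640 bases separate Cd28 from Ctla4 and 62094 bases separate Ctla4 from Icos. Pdcd1 (ENSMUSG00000026285) is farther along the same chromosome on the minus strand, at chr1:94038305-94052553, and Btla (ENSMUSG00000052013) is at chr16:45224315-45257670 on the plus strand. The Ctla4 interval overlaps the pseudogene Rpl18-ps1 and the Icos interval overlaps the gene model Gm37039, neither of which is counted on its own in the matrices.

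Sequence ahead of the start site is shown for the 3 inhibitory receptors, which were those found in the promoter table used. Each run holds 228 bases, from 250 to 23 bases before the RefSeq start, 5′ to 3′ on the strand of the gene (RefSeq, GRCm38.p6), and capitals mark the matches to a short factor motif. The RefSeq start of Ctla4 lies inside the gene interval given above, and so does its window.
Ctla4, chr1:60908775-60909002, plus strand: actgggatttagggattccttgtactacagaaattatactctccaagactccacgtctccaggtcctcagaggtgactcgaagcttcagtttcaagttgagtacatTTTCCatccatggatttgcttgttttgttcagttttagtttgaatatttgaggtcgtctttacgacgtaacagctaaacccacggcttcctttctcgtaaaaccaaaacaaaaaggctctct
Pdcd1, chr1:94052576-94052803, minus strand: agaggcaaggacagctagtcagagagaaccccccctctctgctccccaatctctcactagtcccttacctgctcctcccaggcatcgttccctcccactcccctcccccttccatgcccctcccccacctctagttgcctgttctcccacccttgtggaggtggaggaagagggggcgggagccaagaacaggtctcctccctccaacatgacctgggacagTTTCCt
Btla, chr16:45224087-45224314, plus strand: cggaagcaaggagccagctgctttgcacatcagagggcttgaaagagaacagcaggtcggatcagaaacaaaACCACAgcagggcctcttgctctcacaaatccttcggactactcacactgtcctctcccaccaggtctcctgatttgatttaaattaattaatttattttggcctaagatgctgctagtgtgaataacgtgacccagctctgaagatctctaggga
The 5 motifs searched, on both strands, were the NFAT core GGAAA, AP-1 TGANTCA, Runx TGTGGT, forkhead TGTTTAC and T-box AGGTGT. The Ctla4 window held 1 NFAT core, 144 bases before the start, and the Pdcd1 window held 1 at 28 bases, both read on the opposite strand. The Btla window held 1 Runx match, at 178 bases and also on the opposite strand. Over all 32851 windows of this length, 52.4% held the NFAT core, 6.30% AP-1, 13.1% Runx, 2.89% forkhead and 11.1% T-box, so that a match to the short NFAT core was the usual case. Cd28 and Icos were not in the promoter table used.

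The splenic library held 1738 barcodes and 11103530 UMIs and the intestinal one 1474 barcodes and 5693395 UMIs, with 0 barcodes in common. After removal of low-quality cells and of cells in G2/M phase, 1469 splenic and 1278 intestinal cells were kept, with a median of 5408 and 3696 UMIs per cell. At least 2 of the 4 T cell markers found in the matrices were detected in 1459 and 1272 of them. Cd8a or Cd8b1 was detected in 204 intestinal cells, whereas Cd8a had 0 UMIs in spleen and Cd8b1 was found in 105 splenic cells. As the libraries differed in depth, shares of cells are given after each cell was thinned to 2089 UMIs, which left out 30 splenic and 128 intestinal cells that were shallower. A share counts cells with a UMI. No cells known to lack these receptors were kept, so the share that free RNA gives was not measured. A level is the count per 1000000 (CPM) of the UMIs summed over a group of cells.

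The tissue of origin went with a large difference in Btla, smaller ones in Cd28 and Pdcd1, and nearly equal summed levels of Icos and Ctla4. Among 9873 genes with enough counts, 14.1% were higher by 2-fold or more in spleen and 11.7% were lower. Of the 5 receptor genes 1, Btla, was higher by 2-fold or more, and 0 were lower.

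**Figure D1:**
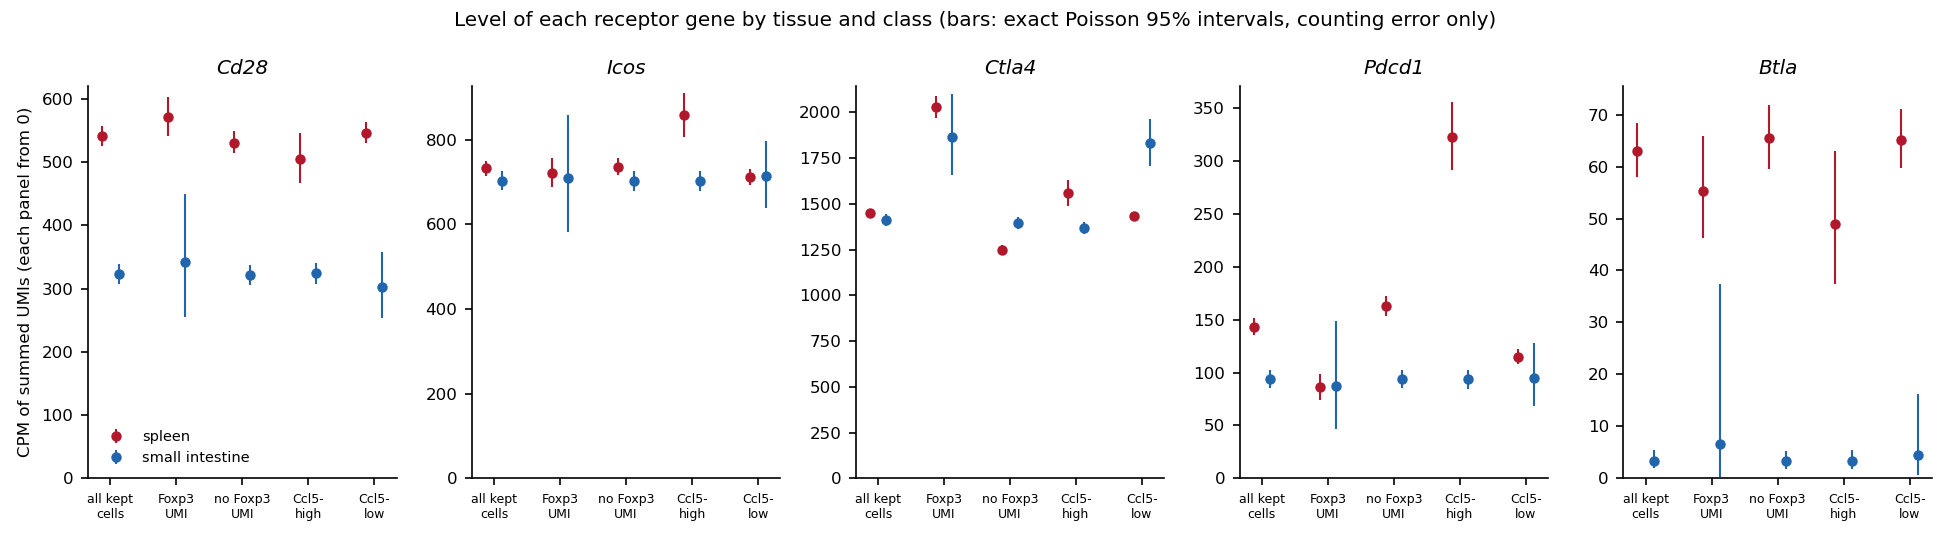
Level of each receptor gene, as CPM of summed UMIs with exact Poisson 95% intervals, in all kept cells of spleen (red) and small intestine (blue) and in the Foxp3 and Ccl5 classes, with each panel on its own linear axis from 0. Btla was at 63.0 CPM in spleen and 3.38 in small intestine, and Pdcd1 reached 322 CPM in the splenic Ccl5-high cells.

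Cd28, the constitutive costimulatory receptor, was at 541 CPM (526 to 556; 4957 UMIs) in spleen and 322 CPM (307 to 338; 1622 UMIs) in small intestine. The log2 ratio was 0.75 (0.67 to 0.83), a level 1.68-fold higher in spleen. At equal depth 63.0% of splenic and 45.9% of intestinal cells had a Cd28 UMI, against 87.8% and 62.0% at the full depths. The difference kept its direction, but not its size, when cells were compared within a Ccl5 class. Among cells without a Foxp3, Cd8a or Cd8b1 UMI the log2 ratio was 0.45 (0.28 to 0.62) in cells very rich in Ccl5 and 0.96 (0.68 to 1.26) in cells poor in it. Those classes are defined with the Ccl5 results below.

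Icos, the inducible costimulatory receptor, was at 732 CPM (715 to 750; 6707 UMIs) in spleen and 703 CPM (680 to 727; 3540 UMIs) in small intestine. The log2 ratio of 0.058 (-0.0010 to 0.12) had an interval that held 0, and at equal depth the shares were 65.3% and 65.7%. Without the cells that had a Cd8a or Cd8b1 UMI the log2 ratio was -0.076 (-0.14 to -0.014), so the sign of this small difference depended on those cells.

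Ctla4, the receptor that competes with CD28 for its ligands, had nearly the same summed level, 1449 CPM (1424 to 1474; 13273 UMIs) in spleen and 1409.7 CPM (1377 to 1443; 7096 UMIs) in small intestine. The log2 ratio was 0.039 (-0.0023 to 0.081). Its spread over cells was not the same. At equal depth 72.6% of splenic cells had a Ctla4 UMI against 84.0% of intestinal cells. At the other end, 4.24% of splenic cells (3.26 to 5.41) held 10 or more Ctla4 UMIs against 2.35% of intestinal cells (1.55 to 3.40). The mean at equal depth was 2.69 UMIs per cell in spleen and 2.98 in small intestine. The variance over cells was 3.72 times the mean in spleen and 2.29 times in small intestine, and the 10% of cells with most Ctla4 held 37.5% and 28.8% of its UMIs. Ctla4 was thus more unevenly distributed in the splenic sample, whereas the same measure for Icos was 1.94 and 1.84, and for Cd28 1.24 and 1.32. The summed ratio also gave deep cells more weight, and with every cell thinned to the same depth it was -0.15 (-0.21 to -0.080) on the log2 scale.

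**Figure D2:**
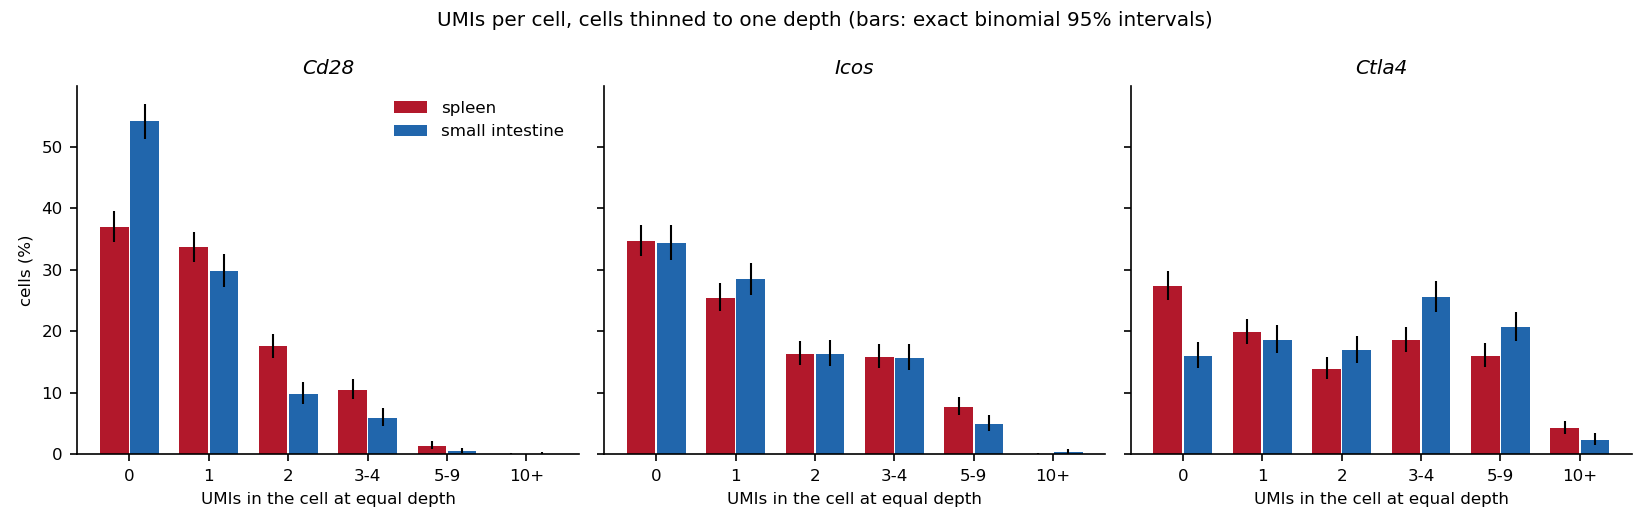
Share of cells (%) by the number of UMIs of Cd28, Icos and Ctla4 they held once thinned to 2089 UMIs, for 1439 splenic (red) and 1150 intestinal (blue) cells, with exact binomial 95% intervals. The Icos distributions lie close to each other, Cd28 shifts toward 0 in small intestine, and Ctla4 in spleen has more cells both at 0 (27.4%, since 72.6% had a UMI, against 84.0% in small intestine) and at 10 or more UMIs (4.24% against 2.35%).

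Pdcd1, which encodes PD-1, was at 143 CPM (135 to 151; 1311 UMIs) in spleen and 93.6 CPM (85.3 to 102; 471 UMIs) in small intestine. The log2 ratio was 0.61 (0.46 to 0.77), and at equal depth 21.3% and 15.5% of cells had a UMI. Its variance over splenic cells was 1.85 times the mean of 0.327 UMIs, against 1.29 times the mean of 0.191 UMIs in small intestine. The 10% of cells with most Pdcd1 held 65.3% of its UMIs in spleen and 71.4% in small intestine. That share also depends on how many cells had any UMI, 21.3% and 15.5%. The measures went opposite ways, so they do not settle whether Pdcd1 was more uneven in spleen.

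Btla, the inhibitory receptor for the herpesvirus entry mediator, was at 63.0 CPM (57.9 to 68.3; 577 UMIs) in spleen and 3.38 CPM (1.97 to 5.41; 17 UMIs) in small intestine, an 18.6-fold difference with a log2 ratio of 4.22 (3.53 to 5.01). At full depth 28.3% of splenic cells had a UMI, and the 17 intestinal UMIs lay in 17 cells, 1.33% of all. At equal depth the shares were 12.9% and 0.870%. B cells, which also express Btla, left few traces: the summed level of their 4 markers was 6.44 CPM in spleen, with Ms4a1 at 0 UMIs and 0 cells with 2 or more markers, and 14.1 CPM in small intestine, with 4 such cells. Btla was also higher in spleen within a Ccl5 class, taken without cells with Foxp3 or Cd8 UMIs. In cells very rich in Ccl5 the log2 ratio was 4.03 (2.93 to 5.28), on 33 and 9 UMIs. Those counts are under the minimum used for the other ratios. In cells poor in Ccl5 it was 3.73 (1.87 to 6.78), on 376 and 2 UMIs.

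The cells of each tissue were then divided by whether they held a Foxp3 UMI, since Foxp3 is the lineage factor of regulatory T cells. In spleen 280 cells had such a UMI and 1189 did not, and Ctla4 was higher and Pdcd1 lower in the former, whereas Cd28, Icos and Btla differed less. Foxp3 was at 51.2 CPM in spleen and 7.55 CPM in small intestine, where 28 of 1278 cells had a UMI. Cells that express Foxp3 but whose Foxp3 RNA was not captured stay among those without a UMI, which are therefore not all Foxp3-negative. Even in the splenic cluster led by Tnfrsf9, Sv2c and Foxp3, described below, 23.1% of cells had a Foxp3 UMI at equal depth.

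Splenic Ctla4 was at 2029.9 CPM (1972 to 2089) in cells with a Foxp3 UMI and 1251 CPM (1224 to 1277) in cells without, a log2 ratio of 0.70 (0.65 to 0.75). At equal depth it was detected in 94.6% and 67.4% of cells, so that nearly every splenic cell with a Foxp3 UMI also had a Ctla4 UMI. Splenic Pdcd1 went the other way, at 85.9 CPM (74.4 to 98.6) and 163 CPM (153 to 172), with a log2 ratio of -0.92 (-1.15 to -0.70) and shares of 14.4% and 23.0%. Cd28 was at 571 and 531 CPM, with a log2 ratio of 0.11 (0.014 to 0.20), and Icos at 721 and 736 CPM, with a log2 ratio of -0.028. Btla was at 55.4 and 65.6 CPM, with a log2 ratio of -0.24 (-0.54 to 0.043). Of 8562 genes in this comparison 1.66% were higher and 2.86% lower by 2-fold or more, and 0 of the 5 receptor genes were past that fold in either direction.

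**Figure D3:**
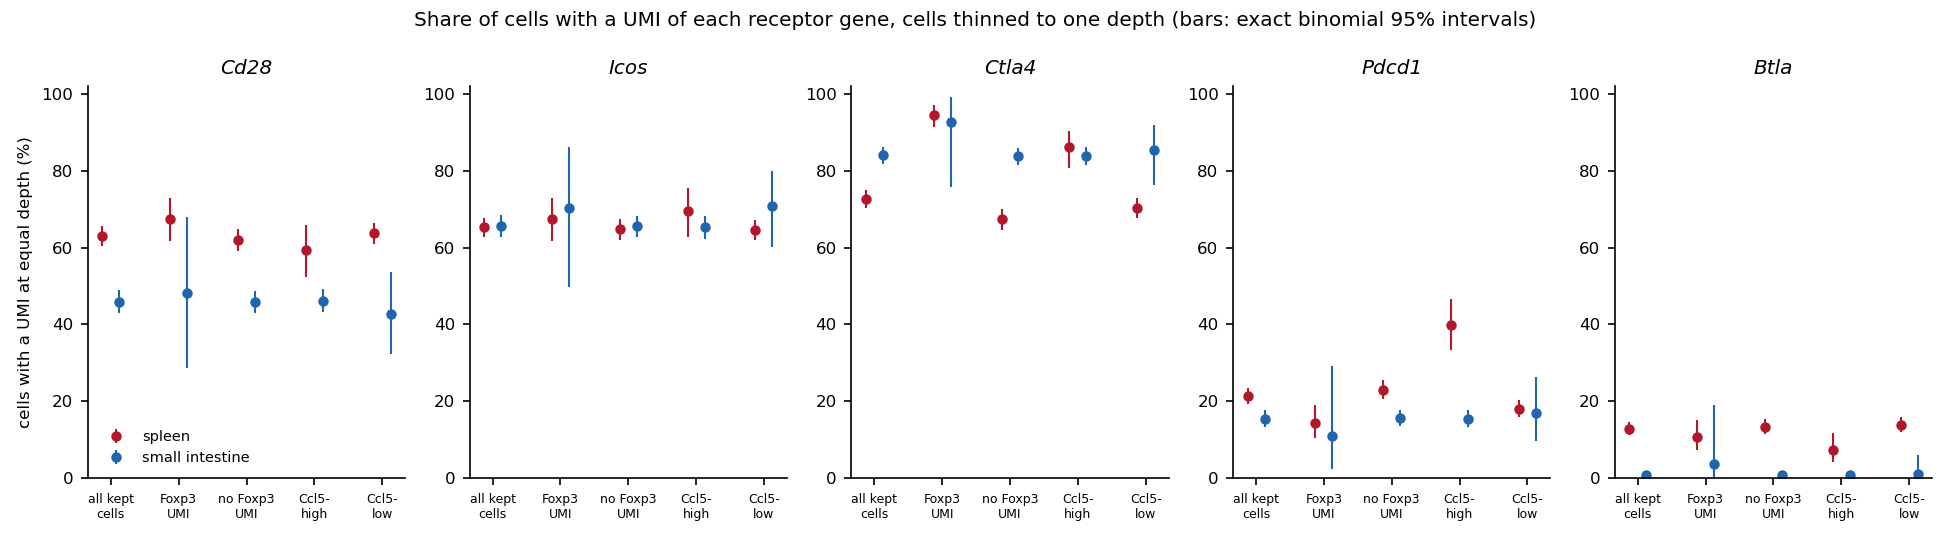
Share of cells (%) with a UMI of each receptor gene after thinning to 2089 UMIs per cell, by tissue (spleen red, small intestine blue) and by Foxp3 and Ccl5 class, with exact binomial 95% intervals. Ctla4 is found in 94.6% of splenic cells with a Foxp3 UMI and 67.4% without, and Pdcd1 in 39.8% of splenic Ccl5-high cells and 18.1% of Ccl5-low cells.

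Depth and cell cycle differed between the splenic Foxp3 classes, as cells with a Foxp3 UMI had a median of 7685.5 UMIs against 5051.0 and 94 of the 280 lay in the cluster led by histone genes and Rrm2. Without that cluster the log2 ratios were 0.94 for Ctla4 and -0.82 for Pdcd1, so neither difference rested on it. Where 2 or more Foxp3 UMIs were required (134 cells) Ctla4 was at 0.53 and Pdcd1 at -1.21. An mRFP UMI, from the reporter of the same locus, was found in 94 splenic cells, 55 of which also had a Foxp3 UMI. Against cells with neither transcript these 94 had log2 ratios of 0.89 for Ctla4, -1.25 for Pdcd1, -0.82 (-1.39 to -0.29) for Btla and 0.17 (0.049 to 0.28) for Icos. Pdcd1 was then past 2-fold lower, but the share of all genes past it in that comparison is not given here.

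In small intestine the 28 cells with a Foxp3 UMI had Ctla4 at 1868 CPM (1656 to 2101) against 1396 CPM in the other 1250, a log2 ratio of 0.42 (0.24 to 0.59). Of these 28 cells 23 lay in the cluster led by Il17a, which as a whole had Ctla4 at 1729 CPM. The other receptor genes were too sparse for a clear difference. The log2 ratio was 0.087 (-0.35 to 0.49) for Cd28, 0.014 (-0.28 to 0.29) for Icos and -0.11 (-1.03 to 0.68) for Pdcd1, which had 13 UMIs in these cells, and Btla had 1 UMI. Of 2026 genes 2.12% were higher and 5.92% lower by 2-fold or more, and 0 of the 4 receptor genes with enough counts were.

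Cells were next divided by Ccl5, a chemokine gene of effector and cytotoxic T cells, into Ccl5-high cells with 10 or more Ccl5 UMIs per 10000 UMIs of the cell and Ccl5-low cells with fewer. In spleen 225 cells were Ccl5-high and 1244 Ccl5-low, and Pdcd1 set the classes apart more than any of the other 4 receptor genes. In small intestine 1178 cells were Ccl5-high and 100 Ccl5-low, and there Pdcd1 was at almost the same level in both while Ctla4 was lower in the Ccl5-high cells.

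Splenic Pdcd1 was at 322 CPM (291 to 355) in Ccl5-high cells and 115 CPM (108 to 123) in Ccl5-low cells, a 2.80-fold difference with a log2 ratio of 1.49 (1.31 to 1.66). Among 7267 genes 1.93% were higher by 2-fold or more and 2.71% lower. Pdcd1 was the 1 of the 5 receptor genes past that fold, and 0 were lower. At equal depth 39.8% of Ccl5-high cells had a Pdcd1 UMI against 18.1% of Ccl5-low cells. Icos was at 857 and 712 CPM, with a log2 ratio of 0.27 (0.17 to 0.36), which was 0.078 (-0.044 to 0.20) when 50 or more Ccl5 UMIs per 10000 were required. Cd28 was at 505 and 547 CPM, with a log2 ratio of -0.11 (-0.24 to 0.0078). Btla was at 49.0 and 65.2 CPM, with a log2 ratio of -0.41 (-0.82 to -0.026). The direction of Ctla4 depended on where the line was drawn and on which cells were included. It was at 1559 and 1431 CPM, a log2 ratio of 0.12 (0.053 to 0.19), but -0.046 (-0.14 to 0.042) when 50 or more Ccl5 UMIs per 10000 were required. Among cells without a Foxp3 UMI the log2 ratio of Ctla4 was 0.35 (0.27 to 0.42). With 50 or more required and no Foxp3, Cd8a or Cd8b1 UMI it was 0.24 (0.15 to 0.34).

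Crossing both divisions in spleen put Pdcd1 at 320.4 CPM (231 to 433) in the 20 Ccl5-high cells with a Foxp3 UMI and 322 CPM (290 to 358) in the 205 without. Among Ccl5-low cells it was at 71.9 CPM (61.1 to 84.0) in 260 cells with a Foxp3 UMI and 131 CPM (122 to 141) in 984 without. Pdcd1 was thus high in Ccl5-high cells with or without a Foxp3 UMI. Its difference by Foxp3 UMI was seen among Ccl5-low cells, at a log2 ratio of -0.87 (-1.13 to -0.62). That class was mixed: the Ccl4-led cluster described below (340 cells, Pdcd1 at 322 CPM) is larger than the 225 Ccl5-high cells, so part of it was Ccl5-low. The Tnfrsf9-led cluster, with regulatory markers, had Pdcd1 at 92.6 CPM, against 90.3 in the Pik3ip1-led and 95.8 in the histone-led cluster. A difference by Foxp3 UMI within clusters was not tested. Ctla4 was at 1854 CPM in the 20 Ccl5-high cells with a Foxp3 UMI and 1524 CPM in Ccl5-high cells without one. Among Ccl5-low cells it was at 2040.4 CPM with a Foxp3 UMI and 1197 CPM without one.

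In small intestine Ctla4 was at 1369 CPM (1335 to 1403) in Ccl5-high cells and 1831 CPM (1708 to 1962) in Ccl5-low cells, a log2 ratio of -0.42 (-0.53 to -0.31). The median of all genes in this comparison was itself at -0.14, and relative to it Ctla4 was at -0.28. Cd28 was at 324 and 302 CPM, with a log2 ratio of 0.10 (-0.15 to 0.37), and Icos at 702 and 714 CPM, with a log2 ratio of -0.024 (-0.19 to 0.15). Pdcd1 was at 93.5 and 94.6 CPM, with a log2 ratio of -0.018 (-0.48 to 0.48), and Btla had 15 and 2 UMIs. Of 4702 genes 4.34% were higher and 4.17% lower by 2-fold or more, and 0 of the 4 receptor genes with enough counts were.

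The intestinal Ccl5-low class was less free of Ccl5 UMIs than the splenic one. Only 6 intestinal cells lacked a Ccl5 UMI, against 815 in spleen, and the Ccl5-low class had a median of 5.93 Ccl5 UMIs per 10000. In all 125 intestinal and 80 splenic cells lay between 5 and 20 per 10000. The part of Ccl5 RNA from outside the cell in this was not tested. With 50 or more required, 1090 cells were high and 188 low, and Ctla4 was again at -0.42 (-0.51 to -0.34), whereas Cd28 was at -0.16 (-0.35 to 0.035), Icos at -0.081 (-0.21 to 0.051) and Pdcd1 at 0.18 (-0.20 to 0.58). Without cells with a Foxp3, Cd8a or Cd8b1 UMI, Ctla4 was at -0.24 (-0.34 to -0.15) at that line, so the difference was smaller and of the same direction.

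Cells with these Cd8 UMIs had lower levels of Cd28, Icos and Ctla4. The median over all genes and the share past 2-fold are not given here for this division. Whether the shift is particular to these receptor genes was not tested. The 204 intestinal cells with a Cd8a or Cd8b1 UMI had Cd28 at 179 CPM against 356 CPM in the other 1074, a log2 ratio of -0.99 (-1.22 to -0.76). Icos was at 402 and 774 CPM, a log2 ratio of -0.95 (-1.10 to -0.79), and Ctla4 at 822 and 1548 CPM, a log2 ratio of -0.91 (-1.02 to -0.81). Pdcd1 was at 113 and 89.1 CPM, a log2 ratio of 0.34 (0.016 to 0.65), so it alone of these 4 was not lower in the cells with a Cd8 UMI.

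The tissues were also compared within classes cut at the same Ccl5 line and without Foxp3 or Cd8 UMIs, called same-cut classes. Such a class is a range of Ccl5 counts and not a cell type. The tissues were not matched for Ccl5 level within it, nor otherwise. All Ccl5-low cells had a median of 0.0 Ccl5 UMIs per 10000 in spleen and 5.93 in small intestine. Cells with 50 or more Ccl5 UMIs per 10000 and no Foxp3, Cd8a or Cd8b1 UMI were taken, 142 in spleen and 887 in small intestine. In them Pdcd1 was at 327 CPM (287 to 371) in spleen and 90.1 CPM (80.2 to 101) in small intestine, a log2 ratio of 1.86 (1.61 to 2.11), which was larger than that over all cells. Icos was at 796 and 783 CPM, a log2 ratio of 0.024 (-0.11 to 0.15), and Ctla4 at 1426 and 1492 CPM, a log2 ratio of -0.066 (-0.16 to 0.031). Among Ccl5-low cells with none of these UMIs (917 and 87 cells) Ctla4 was lower in spleen, at 1169 CPM against 1724 CPM, with a log2 ratio of -0.56 (-0.68 to -0.44), while Pdcd1 was at 136 and 94.0 CPM, with a log2 ratio of 0.53 (0.041 to 1.06). The nearly equal Ctla4 levels over all cells were thus not seen in each class.

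Cells were also grouped by a graph of their other variable genes, leaving out the 5 receptor genes, which gave 6 clusters in each tissue. Spleen held a cluster led by Pik3ip1, Txnip and Evl (341 cells; 5 of 6 naive or central memory markers higher by 2-fold), one led by Ccl4, Ccl5 and Ccl3 (340; 5 of 5 Ccl5-high markers) and one led by Tnfrsf9, Sv2c and Foxp3 (240; 4 of 5 regulatory T cell markers). The others were led by Hist1h2ap, Rrm2 and Hist1h2ae (223; 5 of 5 proliferation markers), by Tnfsf8, Lpar3 and Fas (190; 4 of 5 follicular helper markers), and by Itm2a, Bach2 and Atad3a (135; no marker list with 2 or more members higher by 2-fold). In small intestine the clusters were led by Ccl4, Ecm1 and Ifitm3 (354 cells), by Cd7, Actn2 and Dapk2 (246), by Ahnak, Podnl1 and Lag3 (205), by Il17a, Tmem176b and Tmem176a (181), by Cd8b1, Cd8a and Calcb (148) and by Ramp3, Sv2c and Ppm1d (144). The Il17a-led cluster had 4 of 5 Th17, 4 of 5 regulatory and 4 of 6 naive or central memory markers higher, and is called by its leading gene.

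**Figure D4:**
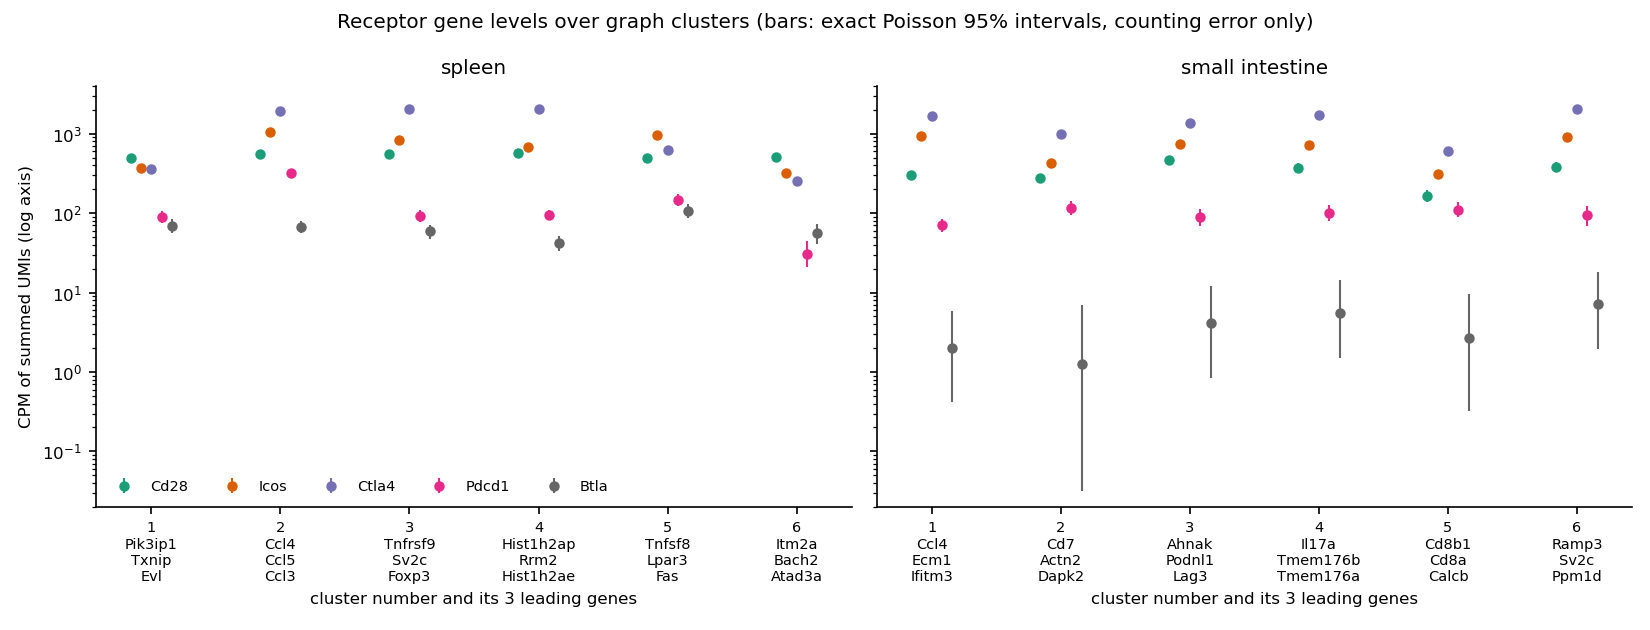
Level of each receptor gene (CPM of summed UMIs, log axis, with exact Poisson 95% intervals) in the 6 graph clusters of each tissue, which are named by their 3 leading genes. In spleen Cd28 is nearly flat (493 to 570.2 CPM) while Ctla4 spans 251 to 2068 CPM and Pdcd1 peaks at 322 CPM in the Ccl4-led cluster. In small intestine Ctla4 spans 613 to 2033 CPM.

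Over the splenic clusters Cd28 hardly varied, from 493 to 570.2 CPM or 1.16-fold. Ctla4 varied 8.23-fold. It was at 2068 CPM in the histone-led, 2061 CPM in the Tnfrsf9-led and 1960.0 CPM in the Ccl4-led cluster, whose intervals overlapped, against 618 CPM in the Tnfsf8-led, 365 CPM in the Pik3ip1-led and 251 CPM in the Itm2a-led cluster. The last 3 clusters were thus poor in Ctla4 but not in Cd28.

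Splenic Icos followed a different order, with 1047 CPM in the Ccl4-led and 953 CPM in the Tnfsf8-led cluster, then 832 and 683 CPM in the Tnfrsf9-led and histone-led clusters, and 369 and 316 CPM in the Pik3ip1-led and Itm2a-led ones. The Tnfsf8-led cluster therefore combined high Icos with low Ctla4. It also had the highest Btla, 108 CPM (87.7 to 131), against 41.8 to 69.7 CPM in the other 5. Pdcd1 was at 322 CPM in the Ccl4-led cluster, 145 CPM in the Tnfsf8-led one, 90.3 to 95.8 CPM in the Pik3ip1-led, Tnfrsf9-led and histone-led ones, which did not differ beyond their intervals, and 31.0 CPM in the Itm2a-led one.

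Over the intestinal clusters Ctla4 varied 3.31-fold, from 613 CPM in the Cd8b1-led to 2033 CPM in the Ramp3-led cluster, with 1385 to 1729 CPM in the Ccl4-led, Ahnak-led and Il17a-led ones and 984 CPM in the Cd7-led one. Icos ranged from 310.1 CPM in the Cd8b1-led to 939 CPM in the Ccl4-led cluster, 3.03-fold. Cd28 ranged from 164 CPM in the Cd8b1-led to 474 CPM in the Ahnak-led cluster, 2.88-fold, so it was less even than in spleen. Pdcd1 ranged from 70.7 CPM in the Ccl4-led to 117 CPM in the Cd7-led cluster, 1.65-fold, and so was far more even than in spleen. Btla stayed between 1.27 and 7.20 CPM, on 1 to 4 UMIs per cluster.

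Across the 12 clusters of both tissues the log levels of Icos and Ctla4 had a Pearson r of 0.77 and those of Cd28 and Btla one of 0.75, whereas Ctla4 and Btla were at -0.29. Btla and Ccl5 were at -0.81. These are descriptions over 12 points that share 2 libraries, so that a tissue difference alone gives a high value. Among 6076 genes ranked in the same way, the 3 most like Cd28 were Cers2 (r = 0.96), Ormdl3 (0.94) and Gtf2a2 (0.94), and those most like Icos were Sirt2 (0.93), Cmtm6 (0.92) and Sdcbp (0.91). Ctla4 was nearest to Mmgt2, Tmed7 and Ube2l6 (all 0.94), Pdcd1 to Snapc5 (0.90), Lsp1 and Capns1 (both 0.85), and Btla to Prkcq (0.97), St6gal1 (0.97) and Cxcr5 (0.96). With 20 neighbours in the graph, 8 of these 15 genes were again among the 3 nearest.

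The receptors were also counted together in the same cell, at equal depth. Cells with 3 or more of the 5 receptor genes made up 47.5% (44.9 to 50.1) of 1439 splenic and 36.3% (33.5 to 39.1) of 1150 intestinal cells. Splenic cells had a mean of 2.35 receptor genes detected and intestinal cells 2.12, against 3.23 and 2.57 at full depth. All 5 were found in 14 splenic and 0 intestinal cells, and none in 4.24% and 4.52%. The most common combination in spleen was Cd28, Icos and Ctla4, at 22.7% of cells. The same combination and that of Icos and Ctla4 alone each made up 24.3% in small intestine.

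**Figure D5:**
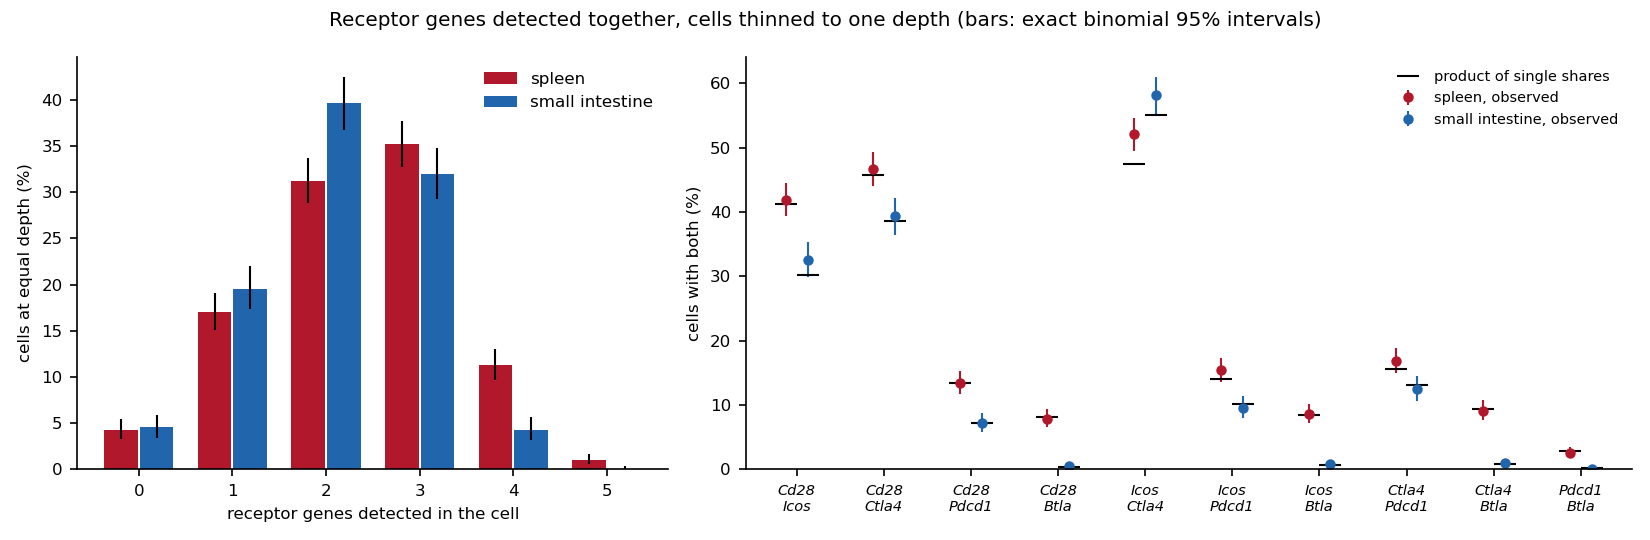
Left, share of cells (%) by the number of the 5 receptor genes detected at equal depth, and right, share of cells with both genes of each pair, in spleen (red) and small intestine (blue) with exact binomial 95% intervals, where the black lines mark the product of the shares of each gene. Icos with Ctla4 in spleen lies above its line (749 cells against 683), and over the 10 splenic pairs the observed number was 0.912 to 1.10 times the product.

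Of the 10 pairs in spleen, the number of cells with both genes was 0.912 to 1.10 times the product of their shares. The interval of that ratio is the Poisson one of the joint count, with the product taken as fixed. It does not use the counts of the single genes and is wide for common genes. An interval that holds 0 on the log2 scale therefore does not show that there was no excess. Only for Icos and Ctla4 did this interval lie above 1. That pair was found in 749 cells against 683 by the product, a log2 ratio of 0.13 (0.029 to 0.24), and Ctla4 was detected in 79.7% of cells with Icos and 59.3% of cells without. In small intestine it was found in 669 cells against 634, a log2 ratio of 0.077 (-0.034 to 0.19), and Ctla4 was in 88.6% of cells with Icos and 75.2% without. Within the 6 splenic clusters, of 133 to 333 cells, the log2 ratio of this pair to the product was 0.0054 to 0.22. Each of these intervals held 0, but as they are wide they do not decide whether there was an excess within clusters. Pdcd1 and Btla were found together in 36 splenic cells, 0.912 times the product, and in 0 of 1150 intestinal cells, which, taken as 3 cells of the total, allows a share of up to 0.261% of cells with a UMI of both at this thinned depth.

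The number of receptor genes per cell varied between clusters. Over the splenic clusters the share of cells with 3 or more ran from 17.3% in the Itm2a-led to 70.0% in the Ccl4-led one, and over the intestinal clusters from 16.7% in the Cd8b1-led to 53.0% in the Ramp3-led one. In spleen the share was 59.3% (52.4 to 65.9) in Ccl5-high and 45.4% (42.6 to 48.2) in Ccl5-low cells, but 54.5% (46.0 to 62.8) and 46.7% (43.9 to 49.4), with intervals that overlapped, at 50 per 10000. It was 53.4% (47.4 to 59.4) in cells with and 46.0% (43.1 to 49.0) in cells without a Foxp3 UMI. These intervals also overlapped, though an overlap does not show that the shares were equal. In small intestine the share was 36.8% in Ccl5-high and 30.3% in Ccl5-low cells, and 35.8% and 38.7% at 50 per 10000, so that the sign of this difference depended on the line.

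The genes that act with these receptors were taken from 5 lists of 43 genes, of which 38 had enough counts in the tissue comparison. In it 5 were higher and 5 lower by 2-fold or more in spleen, close to the 14.1% and 11.7% of all genes tested. The median log2 ratio of the list genes was -0.15 against 0.010 over all genes tested. Ligands and other partners (5 of 10 with enough counts) had 0 higher and 2 lower, with a median of -0.62, costimulatory signalling genes (14) had 2 and 3, with a median of -0.20, and inhibitory signalling genes (5) had 1 and 0, with a median of 0.14. Genes of CTLA-4 trafficking (5) had 0 and 0, with a median of 0.027, and genes that control the receptors' RNA (9) had 2 and 0, with a median of -0.28. The extremes were Irf4, a transcription factor induced by antigen receptor signals, at 75.5 and 19.1 CPM (log2 ratio 1.99), Prkcq, the kinase that links CD28 to NF-kappaB, at 192 and 71.3 CPM (1.43), Grap2, an adaptor for SLP-76, at 14.1 and 46.1 CPM (-1.71), and Cd160, another ligand of the herpesvirus entry mediator, at 21.7 and 139 CPM (-2.68). Cd160 and Btla, which bind the same partner, thus differed in opposite directions between the tissues.

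By Foxp3 UMI in spleen 0 of 38 list genes were higher and 2 lower by 2-fold or more, Ptpn6 (log2 ratio -1.12), which encodes a phosphatase that PD-1 and BTLA recruit, and Cd160 (-1.38). The highest were Pdcd1lg2, the gene of PD-L2 (0.67), and Prdm1, a transcription factor gene (0.56). Of all genes tested 1.66% were higher and 2.86% lower. The median of the list genes was -0.078 against 0.035 over all genes, and that of the 5 inhibitory signalling genes was -0.72. In small intestine 19 list genes had enough counts, 0 were higher and 2 lower, against 2.12% and 5.92% of all genes tested. The 2 lower were Cd160 (-2.42, on 4 UMIs) and Nfatc1 (-1.09, on 6 UMIs, with an interval of -2.54 to 0.047). The highest were Vsir (0.74) and Rab11a (0.66), and the median of the list genes was -0.094 against 0.098.

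By Ccl5 class in spleen 2 of 38 were higher, Cd160 (log2 ratio 1.72) and Cd86 (1.11), and 0 lower. Of all genes tested 1.93% were higher and 2.71% lower. The median of the list genes was 0.20 against -0.027 over all genes. Irf4 was among the lowest, at -0.60. In small intestine 4.34% of all genes tested were higher and 4.17% lower. Of the list genes 3 of 32 were higher and 0 lower, with a median of 0.18 against -0.14. They were Cd160 (3.26), Pdcd1lg2 (1.19, on 5 UMIs in the low class, with an interval of -0.073 to 2.84) and Pik3ca (1.09, on 7), and the lowest were Zc3h12a (-0.45) and Batf (-0.52). Of the ligand genes, Cd80, Icosl and Tnfrsf14 had too few UMIs for a comparison between tissues, so the ligands of ICOS and BTLA were hardly detectable in these sorted T cells at this depth.

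By tissue, Lag3 was at 1147 CPM in spleen and 2419 CPM in small intestine, Havcr2 at 37.2 and 112 CPM and Tigit at 35.8 and 23.8 CPM, so that Tigit differed in the direction of Pdcd1 and the other two in the opposite one. In spleen, Havcr2 and Lag3 had log2 ratios of 2.17 and 0.55 by Ccl5 class and -0.37 (-0.77 to 0.0080) and -0.50 by Foxp3 UMI, the signs seen for Pdcd1, while Tigit was at 0.16 (-0.31 to 0.60) and -0.18 (-0.57 to 0.20).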

How the data were processed

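Single-cell RNA-seq was done on sorted cells of each tissue, 1 library per tissue. The authors aligned and counted the reads with Cell Ranger against Mm10 and deposited 10x matrices of UMI counts per gene and cell barcode, before any filter on cells of the kind used below. The version and the annotation are not given in the sources used here. The submitters' processing notes also name Trimmomatic, with which, by the methods of the study, the 10x reads were trimmed before the Cell Ranger pipeline.

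Cells more than 3 median absolute deviations below the median in log UMIs or log genes, or above it in mitochondrial share, were left out (90 splenic and 135 intestinal cells), as were cells called G2/M by cyclone in scran 1.30.0 (179 and 61). Scrublet in scanpy 1.11.5 marked 4 cells of each library, 3 of them kept; it thus marked few and they were left in. The 5 receptor genes, Foxp3, Ccl5, Lag3, Havcr2 and Tigit were left out of the clustering (20 principal components, 10 neighbours, Louvain communities, bluster 1.12.0 in R 4.3.3). UMIs were summed by group and given as CPM with exact Poisson intervals. Ratios have exact binomial intervals and shares exact Clopper-Pearson ones, all at 95% and for counting error only. A gene counted as tested with an expected count of 10 or more in the smaller group, and as higher or lower at a 2-fold ratio. With 1 library per tissue no test between samples was possible. Correlations over clusters used log2(CPM + 10) and genes with 200 or more UMIs. The ratio intervals and the 2-fold rule were tested on simulated Poisson counts, which hold counting error only, and the thinning on splenic cells. The cell filters, clustering and pair counts were not tested in this way.

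The receptor genes and the gene lists were chosen with earlier results of these data known. The genes named beside the receptors were the 2 highest and the 2 lowest ratios of the lists in each comparison, those past 2-fold, and the 3 genes most like each receptor over clusters. A gene that this rule names in the splenic Ccl5 comparison is not reported here. Analyses used Python 3.11.15, numpy 2.4.6, scipy 1.17.1 and pandas 2.3.3.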

Additional observations from a re-analysis of the deposited data

Results flagged for a closer look

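For 5 ratios the division that gave a higher level in 1 tissue gave a lower level in the other. The difference between the tissues was not tested, as each had 1 library. For Ccl5-high over Ccl5-low cells the log2 ratio of Pdcd1 was 1.49 in spleen and -0.018 in small intestine, that of Ctla4 was 0.12 and -0.42, that of Icos 0.27 and -0.024, and that of Cd28 -0.11 and 0.10. For cells with over cells without a Foxp3 UMI, Icos was at -0.028 and 0.014. The intestinal intervals of Pdcd1 (-0.48 to 0.48), Icos and Cd28 hold 0, as do both intervals of Icos by Foxp3 UMI, so opposite signs alone show little in these 4. With 50 or more Ccl5 UMIs per 10000 required, Pdcd1 was at 1.39 (1.19 to 1.58) in spleen and 0.18 (-0.20 to 0.58) in small intestine, intervals that did not overlap, while Ctla4 was at -0.046 and -0.42. At that line without Foxp3, Cd8a or Cd8b1 UMIs, Ctla4 was at 0.24 (0.15 to 0.34) in spleen and -0.24 (-0.34 to -0.15) in small intestine.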

How the results depend on the processing

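No paired analysis was possible because each tissue had 1 library. The log2 ratios of the receptor genes under the alternatives were set against the counting interval of the reported value. Those within it were 37 of 55 by tissue, 44 of 55 by Foxp3 UMI in spleen and 43 of 44 in small intestine. By Ccl5 they were 51 of 60 in spleen and 53 of 59 in small intestine. Of the reported values whose own interval left out 0, 1 changed sign. It was Ctla4 by Ccl5 in spleen, at -0.046 (-0.14 to 0.042) with 50 per 10000. Reported values whose interval held 0, such as Ctla4 and Icos by tissue, also changed sign, as given next. For spleen over small intestine, Cd28 was at 0.65 as a mean over cells, 0.64 with cells thinned and 0.61 without Cd8 UMIs. It was at 0.45 and 0.96 in the same-cut Ccl5-high and Ccl5-low cells. Icos was at -0.076 without Cd8 UMIs and -0.029 in same-cut Ccl5-low cells. Ctla4 was at 0.12 with G2/M cells kept, -0.012 without the 5% of cells with most UMIs, -0.11 as a mean over cells and -0.15 thinned. It was at -0.13 without Cd8 UMIs, -0.16 without Foxp3 UMIs, and -0.066 and -0.56 in the same-cut classes, so its sign depends on the setting. Pdcd1 was at 0.77 thinned, 0.79 without Foxp3 UMIs and 1.86 in same-cut Ccl5-high cells. At a fold of 1.5, 3 receptor genes were higher in spleen, and by Foxp3 UMI in spleen 1 was higher and 1 lower. The share of all genes past 1.5-fold is not given here, so these counts cannot be set against it. At 2-fold 1, Pdcd1, was lower by Foxp3 UMI in spleen with G2/M cells kept, with 2 or more Foxp3 UMIs and with mRFP. The share of all genes past 2-fold under those settings is not given here either. Thinned to 3000 UMIs, 60.6% of splenic and 51.3% of intestinal cells had 3 or more receptor genes, and without Cd8 UMIs 39.6% of intestinal cells did. The line at 50, mRFP, the same-cut classes and the fit without the histone-led cluster were chosen after seeing the data. The cause of these shifts was not tested.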

Other observations

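The cells in G2/M phase, which were left out above, numbered 179 in spleen and 61 in small intestine. In spleen they had Cd28 at 698 CPM against 541 CPM in the kept cells, a log2 ratio of 0.37 (0.27 to 0.46), and Ctla4 at 1878 CPM against 1449 CPM, a log2 ratio of 0.37 (0.32 to 0.43). Icos (-0.0076), Pdcd1 (-0.12) and Btla (0.18) had intervals that held 0. In small intestine Cd28 was again higher in G2/M cells, at 431 CPM against 322 CPM and a log2 ratio of 0.42 (0.18 to 0.65), while Icos was lower, at 557 CPM against 703 CPM (-0.34), and so was Ctla4, at 1125 CPM against 1409.7 CPM (-0.33, with an interval of -0.47 to -0.19). Pdcd1 was at 90.8 and 93.6 CPM there, and Btla had 1 UMI in the 61 cells.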
